A study of Homo sapiens with 9 samples.

Results

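Genes that build contacts between cells or the keratin cytoskeleton were followed in KGN cells, a human granulosa cell tumour line, under insulin. The genes were listed by symbol: the cadherins CDH1, CDH2 and CDH11, the catenin CTNNB1, the connexin GJA1, the tight junction scaffold TJP1 and the keratins KRT7, KRT8, KRT18 and KRT19. All 10 of 10 had a row among the 15983 genes of the count table, and all 10 passed the filter on low counts, as did 12665 genes in all. Bulk RNA was sequenced from 9 libraries, 3 for each of 3 groups: cells given solvent, cells given 0.5 µg/ml insulin and cells given 1 µg/ml insulin. Every group was fasted for 12 h, was then kept with its agent for 72 h, and carries the label of wild-type genotype, which here means that no engineered change is named. The line comes from a tumour of a single patient, and the labels are silent on whether the 3 libraries per group were grown as separate cultures. The p-values thus measure the spread between these libraries, which may be technical.

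In epithelia and in follicles, neighbouring cells are held together by cadherins, whose outer domains bind each other across the gap and whose tails bind catenins that link to actin. Tight junction scaffolds such as ZO-1 gather beside them, and connexins form channels through which small molecules pass between cells. Granulosa cells are known for N-cadherin and for connexin 43, which couples them to each other. Keratins form intermediate filaments only as pairs of a type I and a type II chain; KRT18 and KRT19 are type I, KRT8 and KRT7 are type II, and KRT8 with KRT18 is the pair of simple epithelia.

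Promoter windows from RefSeq on GRCh38.p14 were at hand for 5 of the 10 genes, and the windows of the 3 most abundant junction genes among them are shown so that the start regions of the channel gene, the catenin and the main cadherin can be read beside their levels. Each runs 5′ to 3′ on the gene's own strand, with the start site 50 bases before its end. Capitals mark an AP-1 site (TGAGTCA or TGACTCA, 1 motif on its 2 strands), an E-box (CAGGTG or CACCTG) or a CCAAT box (CCAAT or ATTGG).
GJA1 chr6:121435396-121435695, plus strand: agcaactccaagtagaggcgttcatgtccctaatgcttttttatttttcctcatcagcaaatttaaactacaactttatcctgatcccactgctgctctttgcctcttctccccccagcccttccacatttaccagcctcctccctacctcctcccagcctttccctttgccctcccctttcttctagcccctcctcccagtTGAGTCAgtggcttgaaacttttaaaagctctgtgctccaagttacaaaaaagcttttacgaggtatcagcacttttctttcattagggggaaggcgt
CTNNB1 chr3:41199255-41199554, plus strand: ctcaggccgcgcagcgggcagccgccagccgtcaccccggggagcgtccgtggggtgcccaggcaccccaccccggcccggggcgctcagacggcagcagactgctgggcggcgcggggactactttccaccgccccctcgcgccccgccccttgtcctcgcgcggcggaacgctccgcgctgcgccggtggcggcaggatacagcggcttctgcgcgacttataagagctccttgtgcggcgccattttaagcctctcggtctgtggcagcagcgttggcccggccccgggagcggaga
CDH2 chr18:28177081-28177380, minus strand: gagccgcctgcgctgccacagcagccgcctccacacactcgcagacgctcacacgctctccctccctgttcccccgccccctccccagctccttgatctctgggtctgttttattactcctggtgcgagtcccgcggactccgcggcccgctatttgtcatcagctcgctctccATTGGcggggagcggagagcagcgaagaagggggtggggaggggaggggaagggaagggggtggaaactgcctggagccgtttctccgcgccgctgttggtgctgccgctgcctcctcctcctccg
The GJA1 window holds 1 AP-1 site, a motif found in 4.95% of the 35116 promoter windows of the same length. RefSeq has a further start window for CDH2, downstream, which also holds 1 CCAAT box; the upstream one is shown. The CDH2 window shown holds 1 CCAAT box, which 34.6% of windows hold, and the CTNNB1 window holds none of the 3 motifs. The E-box, found in 20.6% of windows, occurs in none of the 3. These are matches of letters and not measured binding sites.

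The libraries held between 18965722 and 20446405 counted reads, and a count of 3 corresponded to 0.147 to 0.158 CPM, a gene's reads scaled to a common library total. Of the granulosa markers, 11 of 12 were past the low-count filter, among them NR5A1 at 20.1 ± 0.985, FOXL2 at 9.0 ± 0.687 and FSHR at 1.47 ± 0.202 FPKM, which scales by library total and by gene length (SD, n = 9). INHA, the inhibin alpha chain, stood at 0.485 ± 0.197 FPKM, and AMHR2 had 34 reads in all 9 libraries together. Of 15 epithelial markers listed, 13 were in the table and 8 passed the filter; EPCAM had 7 reads in all and CLDN7 had 15. The summed level of the epithelial markers ran from 1169 to 1279 FPKM at 0.5 µg/ml and from 1213 to 1299 FPKM at 1 µg/ml, against 1156 to 1266 FPKM in solvent, and it is mostly KRT18. Of the markers of fibroblasts and smooth muscle, 11 of 12 were tested. Their summed level was 2974 to 3237 FPKM at 0.5 µg/ml and 2948 to 2984 at 1 µg/ml, against 3032 to 3102 FPKM in solvent. It was mostly collagen, with COL1A1 at 1520 ± 94.1, COL3A1 at 663 ± 49.7 and COL1A2 at 525 ± 19.2 FPKM (SD, n = 9). The other markers were uneven: ACTA2 had 224 ± 23.7, THY1 42.9 ± 2.04, TAGLN 26.2 ± 4.65, PDGFRB 19.4 ± 1.04 and PDGFRA 6.87 ± 1.07 FPKM. Lower still were CNN1 at 2.93 ± 0.564, LUM at 0.742 ± 0.238 and DCN at 0.216 ± 0.0272 FPKM. MYH11 had 12 reads in all. Of the endothelial markers 2 of 10 listed passed the filter, with KDR highest at 3.13 ± 0.226 FPKM, and the endothelial cadherin CDH5 had 3 reads in all. Of the blood and immune markers 3 of 14 listed passed: CD68, a lysosomal protein, at 34.0 ± 2.06 FPKM, CD74 at 17.0 ± 2.32 FPKM and PTPRC, the leukocyte antigen CD45, at 0.282 ± 0.103 FPKM (SD, n = 9). Their summed level ran from 50.52 to 53.83 FPKM at 0.5 µg/ml and from 47.46 to 54.12 FPKM at 1 µg/ml, against 44.95 to 54.91 FPKM in solvent. In bulk RNA, fewer cells of a type and less RNA per cell cannot be told apart.

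The 10 genes covered a wide span of levels that kept nearly the same order in every library. On the FPKM scale, where genes can be compared, KRT18 stood highest at 1173 ± 54.4 FPKM (SD, n = 9 for each gene). It lay in the percentile 99.82 of all genes with a deposited FPKM, tested or not. GJA1 followed at 112.6 ± 6.85 FPKM, CTNNB1 at 76.8 ± 2.49, CDH2 at 74.6 ± 1.69 and CDH11 at 63.5 ± 3.79 FPKM. Then came TJP1 at 38.8 ± 2.27, KRT8 at 27.7 ± 1.55, KRT7 at 8.11 ± 0.797, KRT19 at 2.88 ± 0.442 and CDH1 at 1.04 ± 0.165 FPKM. Of the neighbours in that order, CTNNB1 (72.9 to 80.1 FPKM) and CDH2 (72.8 to 78.2 FPKM) overlapped across the 9 libraries, and every other pair of neighbours stood apart. The median tested gene had 6.83 FPKM, so KRT7 lay close to the middle, KRT19 and CDH1 below it and the other 7 genes above it.

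**Figure D1:**
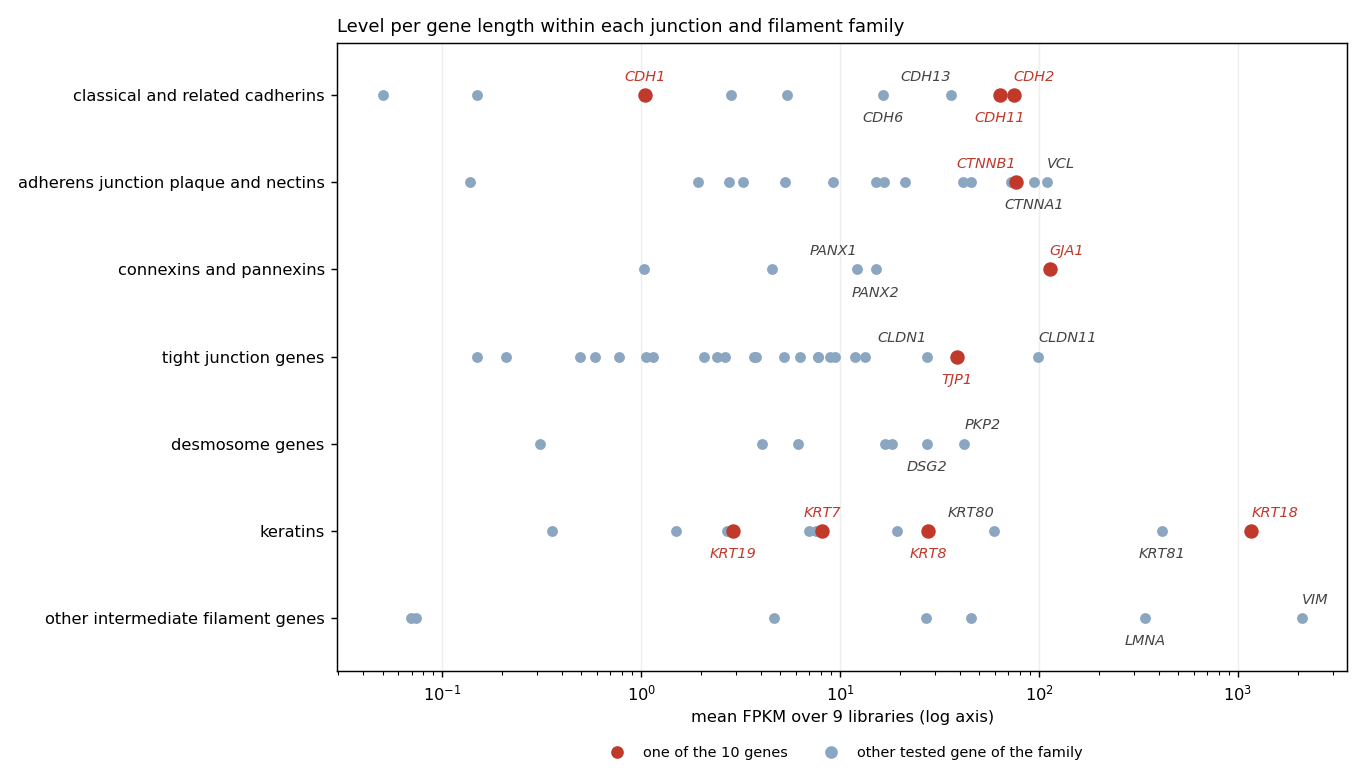
Mean FPKM over 9 libraries on a log axis for each tested gene of 7 junction and filament families; red points are the 10 genes described here and blue points the other tested genes of each family. CDH2 and CDH11 lead the cadherins shown and GJA1 leads the connexins and pannexins. KRT18 stands above every other keratin shown at 1173 FPKM, while VIM reaches 2090 FPKM among the other filament genes.

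Among the cadherins listed, the most abundant RNAs were those of N-cadherin and OB-cadherin, with little E-cadherin RNA. CDH2 (chr18:27950966-28177446, minus strand, GRCh38), which encodes N-cadherin, had 359, 338 and 332 CPM in solvent, 341, 341 and 346 CPM at 0.5 µg/ml and 347, 341 and 333 CPM at 1 µg/ml. The 3 groups overlapped, and the highest library was only 1.08 times the lowest, the narrowest spread of the 10 genes. Its fold change was 0.998 (95% interval 0.936 to 1.06) at 0.5 µg/ml over solvent, with an edgeR adjusted p of 0.992. CDH2 was 0.992-fold (0.931 to 1.06) at 1 µg/ml over solvent, edgeR adjusted p = 1, and 0.995-fold (0.934 to 1.06) at 1 over 0.5 µg/ml. CDH11 (chr16:64943753-65126112, minus strand), the cadherin first described in osteoblasts and common in mesenchymal cells, had 456, 464 and 522 CPM in solvent, 498.5, 445 and 448 CPM at 0.5 µg/ml and 473, 492 and 507 CPM at 1 µg/ml. Solvent held both the highest library and one of the lower ones, so the groups overlapped. CDH11 was 0.964-fold (0.889 to 1.05) at 0.5 µg/ml over solvent, edgeR adjusted p = 0.867. CDH11 was 1.02-fold (0.941 to 1.11) at 1 µg/ml over solvent, edgeR adjusted p = 1, and 1.06-fold (0.976 to 1.15) at 1 over 0.5 µg/ml.

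CDH1 (chr16:68737225-68835548, plus strand), which encodes the E-cadherin of epithelia, was counted only 80 to 127 times per library. It had 5.71, 5.73 and 4.34 CPM in solvent, 6.38, 4.11 and 5.07 CPM at 0.5 µg/ml and 5.00, 4.42 and 4.14 CPM at 1 µg/ml. The highest and the lowest library were both at 0.5 µg/ml. CDH1 averaged 4.52 ± 0.440 CPM at 1 µg/ml, against 5.26 ± 0.798 CPM in solvent (SD, n = 3 each), a log2 change of -0.22 ± 0.18 (SE) with an edgeR p of 0.235 and an adjusted p of 1. CDH1 was 0.989-fold (0.769 to 1.27) at 0.5 µg/ml over solvent, edgeR adjusted p = 0.989. The 95% interval of the change at 1 µg/ml, 0.667 to 1.11 on the fold scale, includes a ratio of 1. Per length, CDH2 exceeded CDH1 by 56 to 87 times over the 9 libraries. CDH1 made up 0.431% to 0.647% of the FPKM summed over the listed cadherins. CDH2 and CDH11 together made up 67.9% to 70% of that sum.

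Of 22 cadherins listed, 15 were in the table and 9 were tested. Behind CDH2 and CDH11 came CDH13, a cadherin anchored in the membrane by lipid, at 36.3 ± 1.88 FPKM, CDH6 at 16.4 ± 1.04 and CDH24 at 5.39 ± 0.487 FPKM (SD, n = 9). P-cadherin, CDH3, had 59 reads in all libraries together. None of the 9 tested cadherins passed the edgeR adjusted threshold of 0.05 in any of the 3 comparisons, and the smallest adjusted p were 0.821 at 0.5 µg/ml over solvent, 1 at 1 µg/ml over solvent and 0.852 at 1 over 0.5 µg/ml; none was under an unadjusted p of 0.05. Their log2 changes were positive for 3 and negative for 6 at 0.5 µg/ml (median -0.016), and positive for 4 and negative for 5 at 1 µg/ml (median -0.0047). CDH13, the cadherin outside the 10 genes with the smallest p at 1 µg/ml, had a log2 change of -0.06 ± 0.05 (SE). CDH10, the cadherin outside the 10 genes with the smallest p at 0.5 µg/ml, averaged 0.624 ± 0.285 CPM there and 0.365 ± 0.286 CPM in solvent, and 93 reads in all 9 libraries together.

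CTNNB1 (chr3:41194741-41260096, plus strand) encodes beta-catenin, which ties the cadherin tail to alpha-catenin and also carries Wnt signals to the nucleus. It had 315, 289.8 and 305 CPM in solvent, 297, 312 and 321 CPM at 0.5 µg/ml and 300.1, 315 and 299.9 CPM at 1 µg/ml. No group stood apart. CTNNB1 was 1.02-fold (0.956 to 1.09) at 0.5 µg/ml over solvent, edgeR adjusted p = 0.912. CTNNB1 was 1.01-fold (0.940 to 1.08) at 1 µg/ml over solvent, edgeR adjusted p = 1, and 0.984-fold (0.919 to 1.05) at 1 over 0.5 µg/ml. RNA level says nothing on how much beta-catenin protein was held at the membrane or in the nucleus. In the same family of plaque and nectin genes, 17 of 17 listed were in the table and 15 tested, and VCL, the actin-linked vinculin, was highest at 110 ± 2.61 FPKM, ahead of CTNNA1, alpha-catenin, at 94.9 ± 2.66 FPKM, CTNNB1 and the nectin NECTIN2 at 72.7 ± 2.0 FPKM. ARVCF, a catenin of the p120 group, averaged 27.2 ± 0.979 CPM at 0.5 µg/ml and 24.1 ± 3.63 CPM in solvent. Its edgeR p was 0.06 and its adjusted p 0.792, and at 1 µg/ml it averaged 22.9 ± 0.678 CPM, below the solvent mean. VCL averaged 591 ± 14.3 CPM at 1 µg/ml and 615 ± 9.30 CPM in solvent without overlap, with an edgeR p of 0.197. The 15 genes had a median log2 change of 0.016 at 0.5 µg/ml and 0.012 at 1 µg/ml, with 8 and 10 above 0.

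GJA1 (chr6:121435577-121449727, plus strand) encodes connexin 43, and it carried nearly all connexin RNA. It had 347, 345 and 379.7 CPM in solvent, 308, 342 and 355 CPM at 0.5 µg/ml and 333, 365 and 350.0 CPM at 1 µg/ml. The lowest library was at 0.5 µg/ml and the highest in solvent, and the groups overlapped. GJA1 averaged 335.1 ± 24.7 CPM at 0.5 µg/ml and 357.3 ± 19.3 CPM in solvent (SD, n = 3 each), a log2 change of -0.09 ± 0.06 (SE) with an edgeR p of 0.112 and an adjusted p of 0.808. The 95% interval, 0.865 to 1.02 on the fold scale, includes a ratio of 1. GJA1 was 0.978-fold (0.902 to 1.06) at 1 µg/ml over solvent, edgeR adjusted p = 1, and 1.04-fold (0.962 to 1.13) at 1 over 0.5 µg/ml. Of 23 connexins and pannexins listed, 12 were in the table and 5 tested, and GJA1 held 94.5% to 95.8% of connexin FPKM over the 9 libraries. The next connexin, GJC1, had 4.52 ± 0.213 FPKM; the pannexins PANX2 and PANX1, which form channels without docking to a neighbour, had 15.1 ± 1.21 and 12.2 ± 0.572 FPKM (SD, n = 9). PANX1 averaged 78.4 ± 2.80 CPM at 1 µg/ml and 83.3 ± 2.01 CPM in solvent without overlap, with an edgeR p of 0.122 and an adjusted p of 1. PANX2, with the smallest p of the other genes at 0.5 µg/ml, averaged 47.3 ± 6.08 CPM there and 43.4 ± 1.67 CPM in solvent, with overlap. The median log2 change of the 5 genes was 0.0088 at 0.5 µg/ml and -0.032 at 1 µg/ml. A copy of GJA1 elsewhere in the genome, GJA1P1, matches 36.4% of the GJA1 transcript at 95% identity or more, so reads from that stretch can match both.

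TJP1 (chr15:29699367-29968865, minus strand) encodes ZO-1, the scaffold that links tight junction proteins to actin and that also sits at adherens and gap junctions. It had 313.8, 343.2 and 370.6 CPM in solvent, 333.7, 332.2 and 315.3 CPM at 0.5 µg/ml and 334.0, 345.2 and 360.8 CPM at 1 µg/ml. TJP1 was the 1 gene of the 10 whose groups did not overlap in any comparison: all 3 libraries at 1 µg/ml were above all 3 at 0.5 µg/ml. It averaged 346.6 ± 13.5 CPM at 1 µg/ml and 327.1 ± 10.2 CPM at 0.5 µg/ml (SD, n = 3 each), a log2 change of 0.08 ± 0.05 (SE) with an edgeR p of 0.138 and an adjusted p of 0.858. Beside this 1 of 10, 12.2% of all tested genes did not overlap between those 2 groups in either direction, and 5.85% were higher at 1 µg/ml. None of the 10 genes stood apart at 0.5 µg/ml from solvent or at 1 µg/ml from solvent, where 10.7% and 7.73% of all tested genes did. Solvent libraries spanned 313.8 to 370.6 CPM and covered both insulin groups. TJP1 was 0.955-fold (0.882 to 1.03) at 0.5 µg/ml over solvent, edgeR adjusted p = 0.834, and 1.01-fold (0.935 to 1.09) at 1 µg/ml over solvent, edgeR adjusted p = 1.

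Of 40 tight junction genes listed, 33 were in the table, 23 were tested and 18 had at least 1 FPKM. CLDN11, a claudin of Sertoli cells and myelin, was highest at 99.2 ± 4.84 FPKM, above TJP1. CLDN1, a claudin of many epithelia, had 27.2 ± 2.18 FPKM and MARVELD1 had 13.3 ± 1.08 FPKM (SD, n = 9). OCLN, occludin, had 2.07 ± 0.262 FPKM. At 0.5 µg/ml over solvent 15 of the 23 had negative and 8 positive log2 changes, with a median of -0.053 beside 0.0045 for all tested genes, and none passed the edgeR adjusted threshold. PARD6B, a polarity gene, averaged 2.70 ± 0.0654 CPM at 0.5 µg/ml and 1.98 ± 0.206 CPM in solvent without overlap. Its edgeR p was 0.0425 and its adjusted p 0.792, and at 1 µg/ml it averaged 2.05 ± 0.235 CPM, overlapping solvent. At 1 µg/ml over solvent 9 were positive and 14 negative, with a median of -0.0092. CXADR, an adhesion receptor with the smallest p there, averaged 22.4 ± 0.898 CPM at 1 µg/ml and 24.2 ± 1.26 CPM in solvent without overlap, with an edgeR p of 0.147 and an adjusted p of 1.

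The desmosome genes, which fasten keratin filaments to the membrane, were also present: 13 were listed, 12 were in the table and 7 tested, led by PKP2 at 42.1 ± 1.61, DSG2 at 27.3 ± 1.09 and DSC3 at 18.2 ± 0.932 FPKM. DSC3, a desmosomal cadherin, had 132 ± 3.94 CPM at 0.5 µg/ml and 143 ± 5.54 CPM in solvent without overlap. Its edgeR p was 0.0314 and its adjusted p 0.792, and at 1 µg/ml it had 142 ± 4.64 CPM, overlapping solvent. PKP2, a plaque protein, had 189 ± 5.02 CPM at 1 µg/ml and 180 ± 4.77 CPM in solvent, with an edgeR p of 0.143. Log2 changes were positive for 6 and negative for 1 of the 7 genes at 0.5 µg/ml (median 0.057), and positive for 2 and negative for 5 at 1 µg/ml (median -0.039). The 0 calls here stand beside 0% called of all 12665 genes in each comparison.

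**Figure D2:**
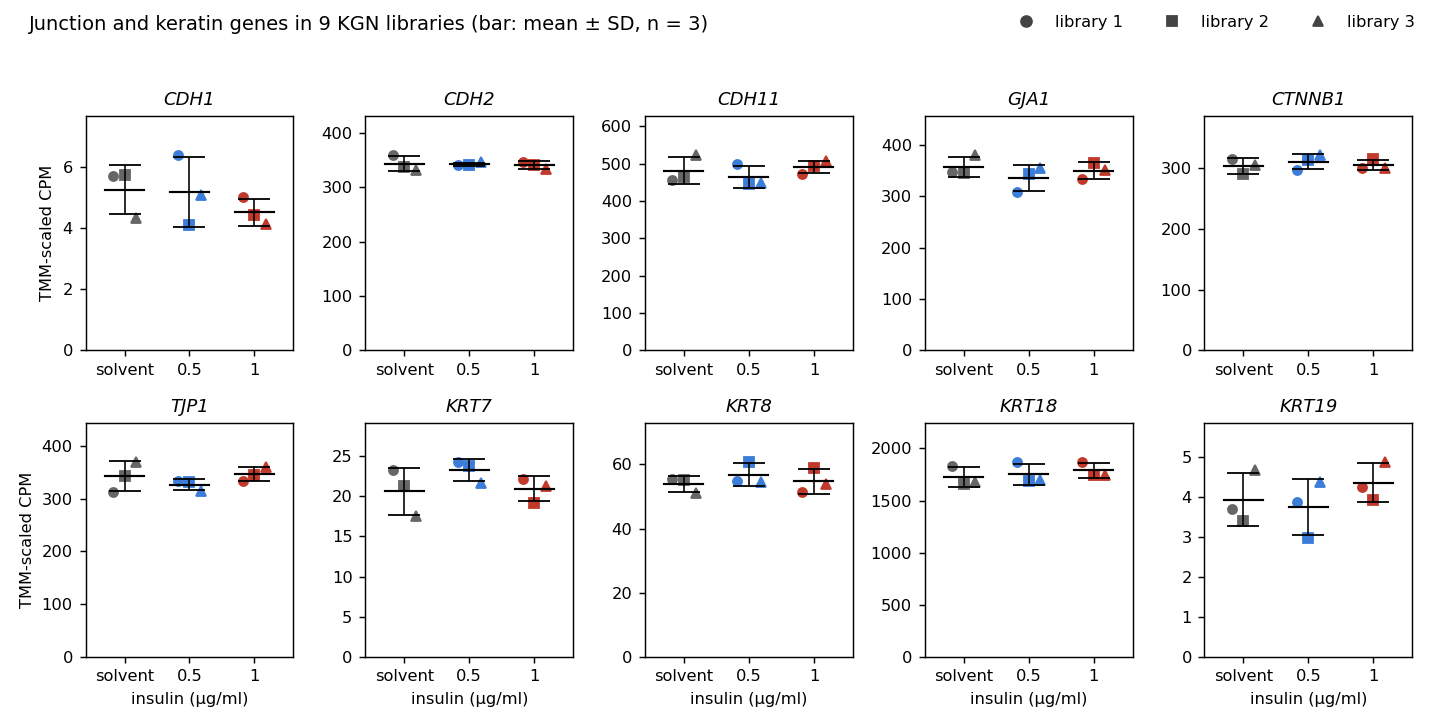
TMM-scaled CPM of each of the 10 genes in each library against insulin dose in µg/ml, with the library number as marker and the group mean ± SD as bars (n = 3). KRT18 libraries sit between 1663 and 1874 CPM and CDH2 libraries between 332 and 359 CPM; for most genes the 3 groups occupy the same range.

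The keratin chains were present in unequal amounts. KRT18 (chr12:52948871-52952901, plus strand) had 1835, 1663 and 1683 CPM in solvent, 1867, 1688 and 1696 CPM at 0.5 µg/ml and 1874, 1747 and 1749 CPM at 1 µg/ml. In each group library 1 was the highest. KRT18 was 1.01-fold (0.940 to 1.09) at 0.5 µg/ml over solvent, edgeR adjusted p = 0.961. KRT18 was 1.04-fold (0.961 to 1.12) at 1 µg/ml over solvent, edgeR adjusted p = 1, and 1.02-fold (0.948 to 1.10) at 1 over 0.5 µg/ml. Its type II partner KRT8 (chr12:52897187-52949954, minus strand) had 55.5, 55.0 and 51.2 CPM in solvent, 54.7, 60.9 and 54.6 CPM at 0.5 µg/ml and 51.3, 58.8 and 53.9 CPM at 1 µg/ml. The highest library of KRT8 was at 0.5 µg/ml and the lowest in solvent, with overlap throughout. KRT8 was 1.05-fold (0.957 to 1.16) at 0.5 µg/ml over solvent, edgeR adjusted p = 0.842. KRT8 was 1.02-fold (0.923 to 1.12) at 1 µg/ml over solvent, edgeR adjusted p = 1, and 0.964-fold (0.877 to 1.06) at 1 over 0.5 µg/ml.

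Per length, KRT18 exceeded KRT8 by 36.8 to 48.5 times over the 9 libraries. Keratin shares were taken over the listed keratins in the table, 10 of type I and 7 of type II. Keratins outside the list were not counted. KRT18 made up 96.9% to 97.4% of that type I sum, and KRT8 with KRT7 only 6.13% to 7.87% of the type II sum. Most of the type II sum was KRT81, a hair keratin, at 414 ± 26.9 FPKM (77.6% to 81.4% of that sum). KRT80 followed at 59.6 ± 4.38 FPKM, and KRT15, a type I chain of basal cells, had 19.4 ± 1.86 FPKM (SD, n = 9). KRT81 and KRT86 share near-identical sequence, over 69.1% of the KRT81 transcript, so reads of the 2 genes may be split between them. KRT18 has copies as well: 67 pseudogenes are named for it, and 1 of them, KRT18P11, matches 74.3% of its transcript at 95% identity or more. KRT8 has 50 such named pseudogenes, with 6.98% of its transcript matched by other genes. KRT8 and KRT18 are neighbours whose exons overlap by 525 bases on opposite strands, which is 7.63% of KRT8 and 16.3% of KRT18 exonic sequence. How multiply matching reads and strand were handled is not given in the sources used here, and the KRT18 and KRT8 levels are uncertain by an amount these files do not give. The ratio of the type I sum to the type II sum over the listed keratins was 2.22 to 2.61. Vimentin, the main filament of mesenchymal cells, exceeded KRT18 per length by 1.63 to 1.95 times. Other genes match 53.5% of the vimentin transcript, VIM-AS1 alone 34.3%, so the vimentin level is uncertain in the same way. Of the other filament genes, the lamins LMNA and LMNB2 of the nuclear envelope had 342 ± 13.8 and 45.7 ± 3.06 FPKM, and LMNB2 had a log2 change of 0.04 ± 0.06 (SE) at 1 µg/ml over solvent.

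KRT7 (chr12:52232520-52252186, plus strand), a type II keratin of ducts and glands, had 23.2, 21.2 and 17.5 CPM in solvent, 24.3, 23.8 and 21.7 CPM at 0.5 µg/ml and 22.2, 19.2 and 21.4 CPM at 1 µg/ml. Its lowest library was in solvent and its 2 highest were at 0.5 µg/ml. KRT7 averaged 23.3 ± 1.42 CPM at 0.5 µg/ml and 20.7 ± 2.92 CPM in solvent (SD, n = 3 each), a log2 change of 0.17 ± 0.09 (SE) with an edgeR p of 0.0797 and an adjusted p of 0.806. The log2 change was 0.0652 without solvent library 3 and 0.266 without solvent library 1. KRT7 was 1.01-fold (0.884 to 1.16) at 1 µg/ml over solvent, edgeR adjusted p = 1, and 0.899-fold (0.785 to 1.03) at 1 over 0.5 µg/ml. The p of 0.0797 at 0.5 µg/ml was the smallest of the 10 genes in any comparison by edgeR. Over all 3 groups, KRT7 had the highest share of its variance between groups, 30.9%, beside a median of 20.6% for all tested genes. For groups that do not differ the mean share expected is 25%, which cannot be set directly against a median. Between libraries of different number the KRT7 share was larger, 36.8%. An antisense gene, KRT7-AS, shares 6.89% of the KRT7 exonic sequence.

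KRT19 (chr17:41523617-41528308, minus strand), a small type I keratin of simple and stratified epithelia, was counted 58 to 99 times per library. It had 3.70, 3.41 and 4.68 CPM in solvent, 3.87, 2.98 and 4.38 CPM at 0.5 µg/ml and 4.25, 3.92 and 4.88 CPM at 1 µg/ml. In every group library 3 was the highest. KRT19 was 0.954-fold (95% interval -0.457 to 0.32 on the log2 scale) at 0.5 µg/ml over solvent, edgeR adjusted p = 0.961, and 1.16-fold (0.890 to 1.51) at 1 over 0.5 µg/ml. It was 1.11-fold (0.850 to 1.44) at 1 µg/ml over solvent, with a log2 change of 0.15 ± 0.18 (SE) and an edgeR adjusted p of 1. KRT18 exceeded KRT19 per length by 333 to 526 times. Of 26 keratins listed, 17 were in the table and 12 tested, with a median log2 change of 0.014 at 0.5 µg/ml and 0.034 at 1 µg/ml and 0 calls. KRT16, a keratin of activated epidermis, averaged 5.63 ± 1.31 CPM at 0.5 µg/ml and 3.70 ± 1.82 CPM in solvent, an edgeR p of 0.0439 with overlap. Its mean at 1 µg/ml was 4.18 ± 1.76 CPM, and 35.9% of its transcript has near-identical copies. KRT86 averaged 42.4 ± 1.93 CPM at 1 µg/ml and 47.2 ± 2.15 CPM in solvent without overlap, an edgeR p of 0.0252 with an adjusted p of 1. Its mean at 0.5 µg/ml was 47.5 ± 2.10 CPM, overlapping solvent.

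Set side by side, the 10 genes gave 0 calls in each comparison, and 0 of 10 at an unadjusted edgeR p under 0.05. Over all tested genes that unadjusted threshold was passed by 6.08% at 0.5 µg/ml over solvent, 2.35% at 1 µg/ml over solvent and 5.64% at 1 over 0.5 µg/ml, and the adjusted one by 0% in each. DESeq2 also called 0 genes in each of the 3 comparisons, with 562, 172 and 489 genes under an unadjusted p of 0.05 in the same order. The 3-group edgeR test gave the 10 genes adjusted p between 0.982 and 0.998, with 0 of 10 under an unadjusted p of 0.05 beside 4.43% of all tested genes. The first and second comparisons share the solvent libraries. At 0.5 µg/ml over solvent 4 of the 10 genes had positive and 6 negative log2 changes, with a median of -0.00968 beside 0.00447 for all tested genes. At 1 µg/ml over solvent 7 were positive and 3 negative, with a median of 0.0188 beside -0.000214. At 1 over 0.5 µg/ml 5 were positive and 5 negative, with a median of 0.0122 beside -0.00116.

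The 95% intervals of all 10 genes lay within 1.5-fold either way at 0.5 µg/ml over solvent and at 1 µg/ml over solvent, and those of 9 at 1 over 0.5 µg/ml, where KRT19 reached 1.51-fold. The shares of all tested genes with such intervals were 87.5%, 87.9% and 87.5%, so most genes of the table were measured that closely. CDH1 and KRT19, the 2 least counted genes, had the widest intervals.

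**Figure D3:**
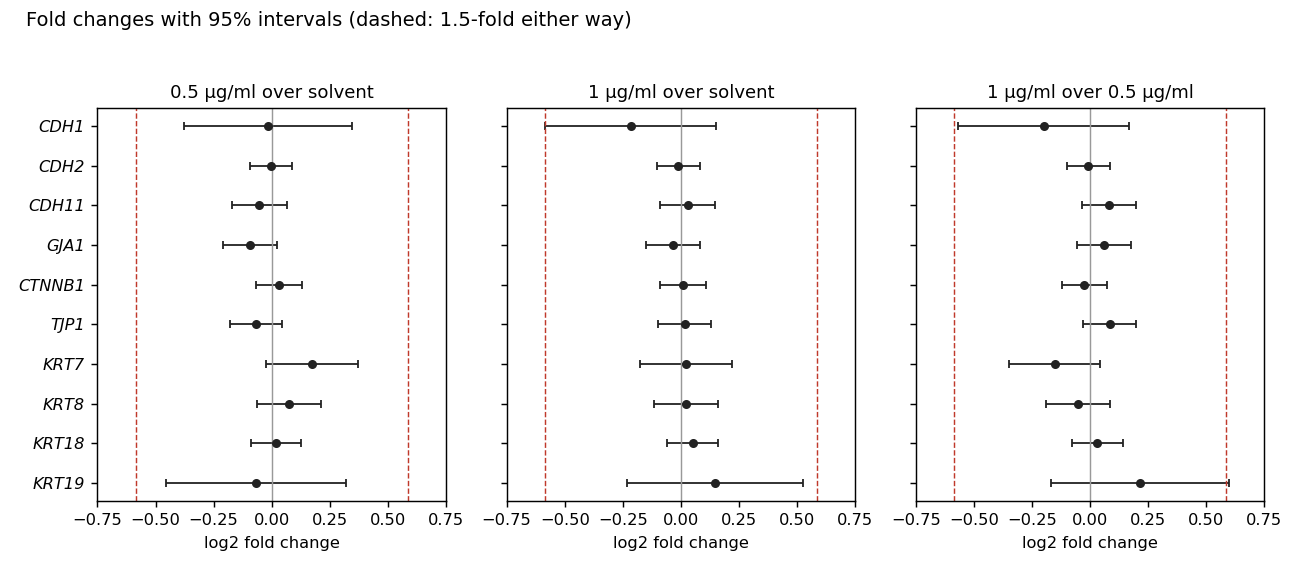
Log2 fold change (points) with 95% interval (lines) of each of the 10 genes at 0.5 µg/ml over solvent, 1 µg/ml over solvent and 1 over 0.5 µg/ml; the dashed lines mark 1.5-fold either way. Every interval crosses 0, CDH1 and KRT19 have the widest, and CDH2 has the narrowest, 0.936 to 1.06 on the fold scale at 0.5 µg/ml over solvent.

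Spread among libraries differed between the genes. The coefficient of variation over the 9 libraries was 16.3% for CDH1 and 15.1% for KRT19, of which counting alone gives 10% and 11.2%, and 10.1% for KRT7 against 4.82% from counting. CDH2 varied by 2.36%, CTNNB1 by 3.33% and KRT18 by 4.71%, beside a median of 6.75% over all tested genes. KRT18 had 86.7% of its variance between libraries of different number, and KRT19 72.6%, beside a median of 23.6% over all tested genes. Where the number makes no difference, the mean share expected is 25%, which cannot be set directly against a median. KRT8 (56.2%), GJA1 (50.3%), CDH1 (44.4%), CDH2 (44.1%), KRT7 (36.8%) and TJP1 (24.4%) were also above the 23.6% median. CDH11 (15.3%) and CTNNB1 (3.49%) were below it. KRT18 was the 1 gene of the 10 for which library 1 of every group lay above all others (1835 to 1874 CPM, against 1663 to 1749 CPM), a pattern that in either direction 6.17% of all tested genes showed. For KRT19 it was library 3 (4.38 to 4.88 CPM, against 2.98 to 4.25 CPM), a pattern shown by 3.05% of all tested genes. Library 2 stood apart in this way for none of the 10 genes and for 1.31% of all tested genes. The labels do not say what the library number stands for, and its part in these levels was not tested.

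**Figure D4:**
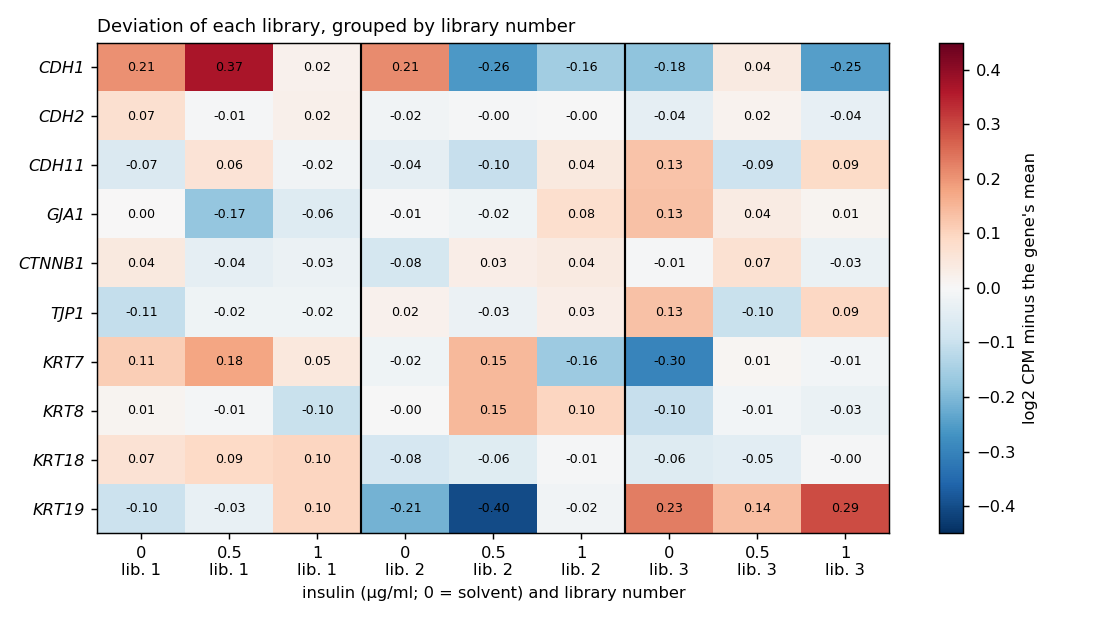
Log2 CPM of each of the 10 genes in each library minus the gene's mean over all 9, with the libraries set in blocks by library number (0 stands for solvent). KRT18 is positive in all 3 libraries numbered 1 and KRT19 in all 3 numbered 3, while CDH2 stays near 0 in all 9.

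Among pairs of the 10 genes, Pearson correlations of log2 CPM over the 9 libraries ran from -0.87 for CDH2 with TJP1 and -0.841 for GJA1 with KRT7 to 0.829 for CDH11 with TJP1. The libraries share 1 line and 1 protocol, so the values are a description. For the 2 most variable genes, the nearest among 11511 genes of at least 2 CPM were MKX (r 0.959), STAMBP (r 0.941) and TLN2 (r 0.933) for CDH1, and CAPN7 (r 0.958), HOXC13 (r 0.954) and PLA2G12A (r 0.941) for KRT19, each over 9 libraries. These partners were picked as the highest of many correlations, and whether such values arise by chance was not tested.

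The regulators known to repress or maintain the epithelial cadherin were measured with them. Of 13 listed, 11 were in the table and 7 tested, and TWIST1 (21.6 ± 1.00 FPKM), SNAI2 (17.8 ± 0.905 FPKM) and ZEB2 (8.87 ± 0.433 FPKM), transcription factors known to repress CDH1, were highest (SD, n = 9). ESRP1, an epithelial splicing factor, had 22 reads in all libraries, and OVOL1 had 5. SNAI1, another CDH1 repressor, had 81 reads in all libraries: it averaged 0.319 ± 0.0825 CPM at 0.5 µg/ml and 0.381 ± 0.0263 CPM at 1 µg/ml, and 0.654 ± 0.0287 CPM in solvent, without overlap between either dose and solvent. Its edgeR p was 0.0201 at 0.5 µg/ml and 0.0617 at 1 µg/ml, with adjusted p of 0.764 and 1. Vimentin averaged 4690 ± 50.4 CPM at 0.5 µg/ml and 4450 ± 67.7 CPM in solvent without overlap. That was a log2 change of 0.08 ± 0.04 (SE), with an edgeR p of 0.0864 and an adjusted p of 0.807. The higher dose did not show it: vimentin averaged 4420 ± 65.9 CPM at 1 µg/ml, overlapping solvent, a log2 change of -0.00839.

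Over the 75 tested genes of these families that are not among the 10, 5 (6.67%) had an edgeR p under 0.05 at 0.5 µg/ml over solvent, 1 (1.33%) at 1 µg/ml over solvent and 6 (8%) at 1 over 0.5 µg/ml, and 0 passed the adjusted threshold. Of all tested genes, 6.08%, 2.35% and 5.64% were under that unadjusted edgeR p in the same order. The 75 genes had median log2 changes of 0.0088, -0.0049 and -0.0098, beside 0.0045, -0.00021 and -0.0012 over all tested genes.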

How the data were processed

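The read counts and FPKM values per gene were made by the authors and deposited as 2 tables, each with 9 library columns; counts were used as deposited and sum to 18965722 to 20446405 per library. Per the submitters' processing notes, Trimmomatic, HTSeq, DESeq and hg38 were named, without versions or roles; strand and multiple-match settings could not be read from these. Deposited FPKM are the counts rescaled by library total and a gene length: across the 11053 genes that reached 50 counts in all 9 libraries, the implied length differed between them by at most 5.5e-09 of its value.

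Genes were filtered with edgeR's filterByExpr (minimum count 10), normalised by TMM and tested by edgeR quasi-likelihood F-tests (edgeR 4.0.16, R 4.3.3) in a single model of all 9 libraries, with Benjamini-Hochberg adjustment over 12665 genes and a threshold of 0.05. CPM are TMM-scaled. Intervals are 95%, from the moderated fit. Scripts were tested on simulated data. DESeq2 1.42.0 and limma 3.58.1 (log2 of FPKM plus 0.1 or 1) were alternatives. Positions and copies come from GENCODE 29 on GRCh38, the copies by blastn (BLAST+ 2.17.0, at least 95% identity over at least 75 bases).

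The members and family lists were chosen with earlier results of these data known. Beside the 10 members, the text names from each list the 3 tested genes of highest FPKM and the gene of smallest p at each dose over solvent, and for the 2 most variable members their 3 most correlated genes. Other genes, given by level, by read total or, for INHA, by log2 change, were named after their values were seen. Each library was counted as a sample. Libraries of a group differed by 2.18 to 8.38 times the counting variance, which does not show whether they were separate cultures.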

Additional observations from a re-analysis of the deposited data

How the results depend on the processing

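The 56 gene results (fold changes and 3-group p-values) were recomputed 801 times in all under the alternatives: 769 kept their side of the threshold and, for fold changes, their direction, 0 passed it, and 32 changed sign, 30 of them on leaving out 1 library; the lowest adjusted p of any of the 10 genes under any setting was 0.393. With no low-count filter, genes called over the whole table numbered 6 at 0.5 µg/ml over solvent, 3 at 1 µg/ml over solvent, 4 at 1 over 0.5 µg/ml and 8 over the 3 groups, against 0 in each with the filter; DESeq2 called 1 over the 3 groups. On leaving out each library in turn the calls ranged from 0 to 1 at 0.5 µg/ml over solvent (1 without 0.5 µg/ml library 3), from 0 to 0 at 1 µg/ml over solvent, from 0 to 2 at 1 over 0.5 µg/ml (2 without 0.5 µg/ml library 1, 1 without library 3) and from 0 to 3 over the 3 groups (3 without 0.5 µg/ml library 1). The causes were not tested. CDH2 at 1 over 0.5 µg/ml had a log2 change of -0.0076, and of 0.00582 by limma on log2(FPKM + 0.1) and 0.00575 on log2(FPKM + 1).

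Leaving out 1 library, log2 changes at 0.5 µg/ml over solvent ranged from -0.192 to 0.125 for CDH1, -0.108 to 0.0099 for CDH11, -0.0268 to 0.0308 for CDH2, -0.0299 to 0.0655 for KRT18, -0.198 to 0.0777 for KRT19 and, with no change of sign, 0.0652 to 0.266 for KRT7 and -0.138 to -0.0352 for GJA1. At 1 µg/ml over solvent they ranged from -0.00684 to 0.0922 for CDH11, -0.0336 to 0.0236 for CDH2, -0.0219 to 0.0378 for CTNNB1, -0.0648 to 0.0132 for GJA1, -0.0874 to 0.113 for KRT7, -0.0325 to 0.0654 for KRT8, -0.0413 to 0.0773 for TJP1, -0.0107 to 0.109 for LMNB2 and, with no change of sign, -0.339 to -0.147 for CDH1. At 1 over 0.5 µg/ml they ranged from -0.0221 to 0.00827 for CDH2, -0.053 to 0.00189 for CTNNB1, -0.00256 to 0.0815 for KRT18 and -0.107 to 0.00178 for KRT8.

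The replicate numbers were not taken to pair the libraries, since correlations of same-numbered deviations ran from -0.012 to 0.16 and 1 of 9 pairs exceeded 0.1. With the replicate number as a block, 0 genes were called in every comparison, and genes at an unadjusted edgeR p under 0.05 numbered 971, 343 and 891, against 770, 298 and 714 without it. KRT7 at 0.5 µg/ml over solvent then had a log2 change of 0.18, an edgeR p of 0.0468 and an adjusted p of 0.651. Depth limits CDH1 and KRT19, with 80 to 127 and 58 to 99 reads per library.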
